A study of Mus musculus with 25 samples.

Results

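Potassium channel genes were taken as the protein-coding mouse genes whose symbol starts with Kcn, leaving out Kcnj10. The rule found 93 of the 36528 gene IDs in the count tables, and 78 of the 93 had a mean of at least 1 CPM (1 count per 1000000 counts of a library) in at least 1 of the 4 groups. The other 15 were below that level in every group: Kcna7, Kcna10, Kcne1, Kcne1l, Kcne2, Kcne3, Kcne4, Kcnj1, Kcnj14, Kcnk5, Kcnk15, Kcnk16, Kcnmb3, Kcns1 and Kcnv2. Just inside the threshold were Kcnj5, with a highest group mean of 1.15 CPM, and Kcnk18 with 1.32 CPM. Just outside it were Kcne2 with 0.904 CPM and Kcns1 with 0.844 CPM. The libraries came from mice aged 6 months that carried the hMAPT-P301S transgene, which encodes human tau with a mutation that causes frontotemporal dementia, or from non-transgenic littermates (non-Tg). Brain neurons had been sorted by the nuclear antigen NeuN, giving 8 non-Tg and 6 P301S libraries. Astrocytes had been sorted by the filament protein Gfap, giving 6 non-Tg and 5 P301S libraries. Cd11b+ myeloid cells of the same experiment were not analysed here. The labels do not name the promoter of the transgene or the brain region, and do not say whether a library was 1 animal or a pool, or which neuron and astrocyte libraries shared an animal. The p-values therefore measure the spread between these libraries.

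Potassium channels let potassium ions leave or enter cells along their gradient and so set the resting potential, the shape of the action potential and the firing pattern of neurons. Voltage-gated pore subunits (the Kv, Kv7 and EAG families) assemble in groups of subunits and take up cytoplasmic or membrane partners. Inward rectifiers (Kir) and leak channels (K2P) hold the membrane near rest, and the BK, SK and Slack channels open with internal calcium or sodium. Astrocytes are known for a large resting potassium conductance, carried mainly by Kir and K2P channels, through which they clear potassium released by active neurons.

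Total counts ran from 1245964 to 4453555 per library, so that 3 counts, taken as the floor of detection, corresponded to 0.571 to 2.27 CPM. Levels are CPM scaled by the TMM method over all 25 libraries and are given with the SD over a group's libraries (mean ± SD). The floor covers counting error only. The libraries held the markers of their sort. In both genotypes 8 of 10 neuron markers were higher in neurons and 10 of 10 astrocyte markers lower, and no marker of either list was at 0 in a whole group. The neuron markers were counted in astrocyte libraries too: all 10 summed to between 543 and 1088 CPM in astrocyte libraries and to between 2034 and 2867 CPM in neuron libraries. Which cells these counts came from was not tested. Thinned to 1000000 counts, P301S astrocyte libraries held 11918 to 16408 detected genes and non-Tg astrocyte libraries 15067 to 17841. Non-Tg neurons 5 and 8 carry sample identifiers from another range than the other libraries. In sorted bulk samples, fewer cells of a type and less RNA per cell cannot be told apart. The protocol in the labels reports a much smaller RNA yield from astrocytes than from neurons.

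Most potassium channel genes that could be tested differed between neurons and astrocytes, and most of those were higher in neurons. The counts of all 93 genes together came to 5349 ± 549 CPM (n = 8) in non-Tg neurons and 1854 ± 184 CPM (n = 6) in non-Tg astrocytes. In P301S mice they came to 4952 ± 125 CPM (n = 6) in neurons and 2025 ± 260 CPM (n = 5) in astrocytes. Every neuron library lay at or above 4468 CPM and every astrocyte library at or below 2241 CPM. In non-Tg mice 36 of 52 tested members were higher and 10 were lower in neurons, called at an adjusted p under 0.05 (edgeR quasi-likelihood test, Benjamini-Hochberg over all genes). Over all 14197 genes tested, 46.9% were called, 21.8% higher and 25.1% lower. The median log2 fold change was 2.89 over the tested members and -0.11 over all genes. With RLE size factors (medians of ratios) the median over all genes was 0.08, and 38 members were higher and 9 lower. The values of the groups did not overlap for 34 members higher and 8 lower in neurons, beside 15.7% and 15.4% of all genes. A member could enter the test through a high level in a single cell type, so these counts describe the tested members and not all 93.

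The make-up of the Kcn counts differed as well, given here as shares of the summed CPM of all 93 genes without a test. The beta subunits of Kv1 channels took 18.0% ± 6.76 in non-Tg neurons and 1.65% ± 0.778 in non-Tg astrocytes. The BK genes took 16.1% ± 1.81 and 8.83% ± 1.43. The SK genes took 1.73% ± 0.308 in neurons and 12.9% ± 2.46 in astrocytes, and the leak channels 3.07% ± 0.561 and 8.70% ± 1.43. Inward rectifiers were nearer to each other at 11.4% ± 1.11 and 16.7% ± 2.86. A share also depends on the total, which was lower in astrocytes. As sums, the inward rectifiers were at 608 ± 69.6 CPM in non-Tg neurons and 311 ± 66.1 CPM in non-Tg astrocytes. These inward rectifier shares and sums leave out Kcnj10, as set by the rule. The leak channels were at 162 ± 16.1 and 160 ± 15.4 CPM, and the SK genes at 91.4 ± 11.6 and 236 ± 32.5 CPM.

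**Figure D1:**
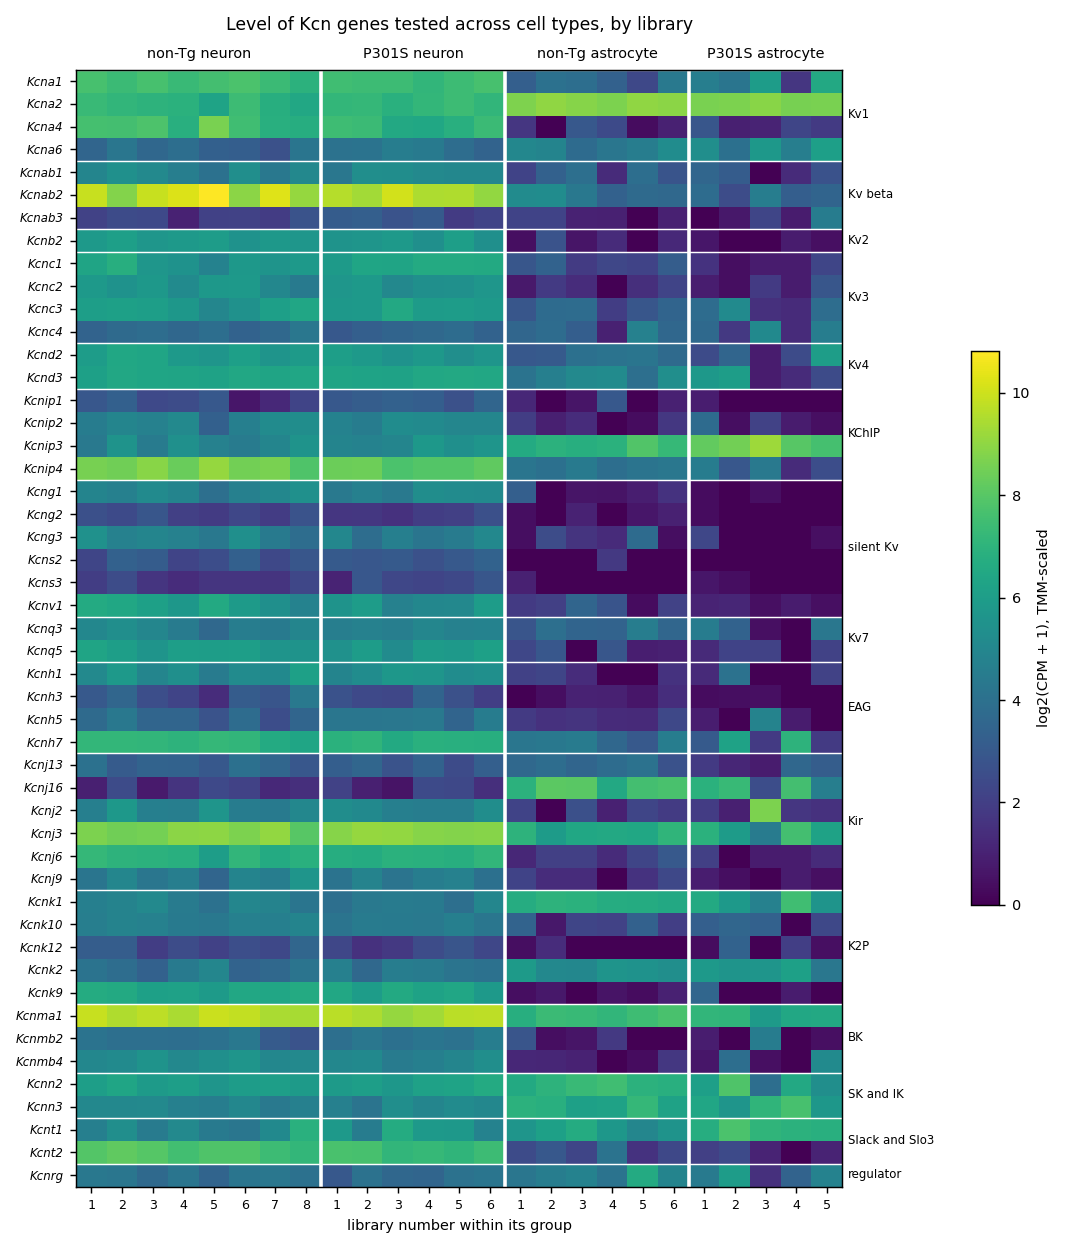
Level of 49 of the Kcn genes tested across cell types in each of the 25 libraries, as log2(CPM + 1) with TMM scaling; rows are genes grouped by family, columns are libraries grouped by cell type and genotype, and colour runs from 0 (dark) to the highest level (yellow). Kcnab2, Kcnma1 and Kcnj3 are bright in the neuron columns, while Kcna2, Kcnip3, Kcnj16, Kcnk1 and Kcnn3 are brighter in the astrocyte columns.

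In P301S mice 33 of the 52 members were higher and 9 lower in neurons, beside 23.2% higher and 29% lower among all genes (52.3% called). The values of the groups did not overlap for 30 members higher and 5 lower, beside 17% and 12.7% of all genes. When a library's number of detected genes entered the fit, 18 were higher and 4 lower, and the P301S calls of Kcna6, Kcnk1, Kcnk2 and Kcnn3 given below were among those lost. Without non-Tg neurons 5 and 8 the counts were 34 higher and 10 lower in non-Tg and 30 and 9 in P301S mice. The calls went in the same direction in both genotypes for 40 members, 32 of them higher and 8 lower in neurons. No member was called in opposite directions. Kcnh5, Kcnj2, Kcnk12, Kcnmb2, Kcnn2 and Kcnrg were called in non-Tg mice alone, and Kcnip1 and Kcnt1 in P301S mice alone. For none of these 8 did the contrast itself differ between genotypes at the threshold, as given below.

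**Figure D2:**
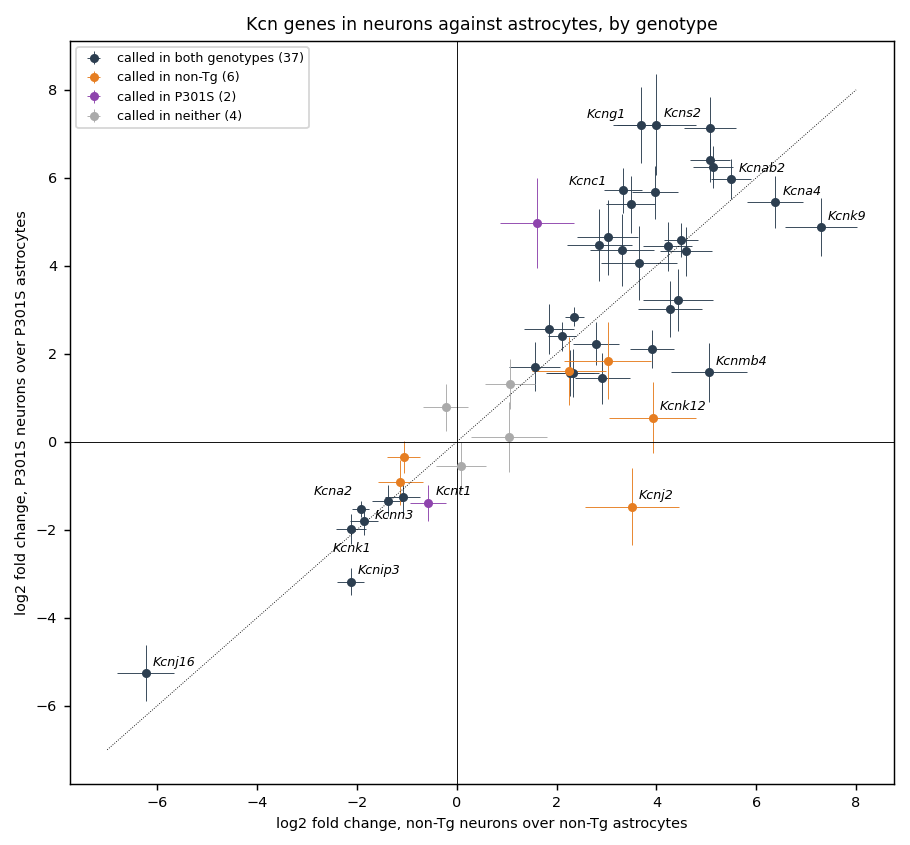
Log2 fold change of neurons over astrocytes for 49 of the tested Kcn genes, in non-Tg mice on the x axis and in P301S mice on the y axis; bars are standard errors, colours show in which genotype a gene was called, and the dotted line marks equal values. The upper right holds 30 genes called higher in neurons in both genotypes and the lower left 7 called lower in both; Kcnj2 lies far from the line.

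Among members with a single entry in the RefSeq promoter table, Kcnt2 and Kcnma1 had the smallest p of those higher in non-Tg neurons, and Kcna2 and Kcnk1 of those lower. Kcnj16 had the largest difference towards astrocytes, and of its 4 entries the 1 that holds a TATA box is shown. The 250 bases before a start of these 5 genes are printed as examples (RefSeq, GRCm38.p6, 5′ to 3′ on the gene's strand). The Kcnj16 window was chosen for its motif, so it does not show what is usual on its side. Capitals mark matches on either strand to CCCGCCC (the GC box bound by Sp factors), TATAAA (the TATA box), and GGACAGC or CAGCACC (parts of the RE1 element bound by the neuronal gene repressor REST).
Kcnt2, chr1:140245468-140245717, plus strand, higher in neurons: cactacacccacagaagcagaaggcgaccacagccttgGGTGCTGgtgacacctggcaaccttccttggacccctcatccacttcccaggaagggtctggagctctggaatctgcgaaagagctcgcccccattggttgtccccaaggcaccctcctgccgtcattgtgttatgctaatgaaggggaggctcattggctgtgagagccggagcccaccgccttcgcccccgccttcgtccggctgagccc
Kcnma1, chr14:24004206-24004455, minus strand, higher in neurons: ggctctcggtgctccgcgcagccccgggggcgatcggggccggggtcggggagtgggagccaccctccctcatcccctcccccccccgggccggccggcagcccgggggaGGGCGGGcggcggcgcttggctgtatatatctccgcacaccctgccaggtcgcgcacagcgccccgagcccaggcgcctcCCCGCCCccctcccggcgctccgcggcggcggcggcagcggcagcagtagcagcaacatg
Kcna2, chr3:107101317-107101566, plus strand, lower in neurons: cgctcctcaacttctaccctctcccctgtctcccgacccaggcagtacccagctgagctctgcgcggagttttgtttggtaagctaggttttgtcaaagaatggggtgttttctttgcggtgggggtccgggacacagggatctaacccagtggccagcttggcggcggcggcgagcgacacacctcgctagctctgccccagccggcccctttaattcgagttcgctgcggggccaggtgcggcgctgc
Kcnk1, chr8:125994852-125995101, plus strand, lower in neurons: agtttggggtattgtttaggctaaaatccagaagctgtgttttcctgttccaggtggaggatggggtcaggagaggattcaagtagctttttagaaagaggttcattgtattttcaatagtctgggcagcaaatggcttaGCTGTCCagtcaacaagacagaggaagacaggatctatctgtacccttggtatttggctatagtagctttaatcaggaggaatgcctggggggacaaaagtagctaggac
Kcnj16, chr11:111019335-111019584, plus strand, 1 of 4 entries, lower in neurons: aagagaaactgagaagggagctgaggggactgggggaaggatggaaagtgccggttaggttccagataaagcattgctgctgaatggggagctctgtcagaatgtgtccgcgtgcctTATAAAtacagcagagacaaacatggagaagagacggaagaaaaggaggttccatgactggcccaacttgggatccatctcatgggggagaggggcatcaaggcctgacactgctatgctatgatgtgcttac

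The window of Kcnma1 held 31 CG pairs and 2 GC boxes. That of Kcnt2 held 10 CG pairs and 1 match to CAGCACC, and that of Kcna2 held 18 CG pairs and none of the motifs. The window of Kcnk1 held 0 CG pairs and 1 match to GGACAGC, and the printed window of Kcnj16 held 4 CG pairs and a TATA box. That window lies inside the gene (chromosome 11 from 110968033 to 111027968), and the other 3 entries of Kcnj16 held 1, 3 and 7 CG pairs and none of the motifs. Inside the bounds of their genes, too, lie the windows of Kcna2, Kcnk1 and Kcnma1. Those genes span chromosome 3 from 107090883, chromosome 8 from 125993655 and chromosome 14 up to 24005110. The window of Kcnt2 overlaps the first bases of its gene, which starts at 140245657. The table had an entry for 68 of the 93 members. CCCGCCC was in 29.7% of 37 promoters (25 genes) of members higher in neurons, in 12.5% of 16 promoters (8 genes) of members lower in neurons and in 23.4% of all 32851 promoters of that length. CAGCACC was in 13.5%, 0% and 5.73% of these sets and GGACAGC in 5.41%, 12.5% and 5.28%. TATAAA was in 2.7%, 6.25% and 12.4%. TGACGTCA (the cAMP response element) was in no Kcn promoter and in 1.55% of all promoters. These are matches of letters in a fixed window, not evidence of binding.

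The Kv1 family and its cytoplasmic beta subunits were divided between the cell types. Of 4 tested Kv1 pore genes, Kcna1 and Kcna4 were higher in neurons and Kcna2 and Kcna6 lower, in both genotypes. Kcna2 (Entrez 16490, GRCm38 chromosome 3 from 107090883 to 107115005), a subunit of the low-threshold Kv1 current of axons, ranged from 75.2 to 168 CPM in non-Tg neurons with a median of 122 CPM. In non-Tg astrocytes it ranged from 412 to 518 CPM (median 473 CPM). In P301S neurons it ranged from 114 to 171 CPM (median 142 CPM), and the 5 P301S astrocyte libraries held 400, 408, 469, 383 and 395 CPM. Every astrocyte library was above every neuron library. The log2 fold change of neurons over astrocytes was -1.93 (SE 0.17, adjusted p = 1.75e-11) in non-Tg and -1.53 (SE 0.19, adjusted p = 3.34e-08) in P301S mice. Kcna6 was lower by a smaller margin, -1.08 (SE 0.35) and -1.26 (SE 0.39), and 39.6% of its exonic bases are shared with an antisense gene in GENCODE. Whether counting used strand is not given in the sources used here, so reads of overlapping genes cannot be told apart. Together the Kv1 genes made up 9.33% ± 1.61 of all Kcn counts in non-Tg neurons and 27.7% ± 1.06 in non-Tg astrocytes. Their summed levels were close, at 502 ± 114 and 512 ± 46.9 CPM, and the shares differed with the Kcn totals.

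Kcna1, which carries the same low-threshold current, was at 177 ± 31.1 CPM in non-Tg neurons and 11.8 ± 5.54 CPM in non-Tg astrocytes, a log2 fold change of 3.90 (SE 0.44). In P301S mice it was at 171 ± 20.1 and 39.4 ± 36.4 CPM. Kcna4, an A-type pore gene, ranged from 104 to 391 CPM in non-Tg neurons (median 183 CPM) and from 0 to 6.91 CPM in non-Tg astrocytes. The fitted value was 6.38 (SE 0.56) in non-Tg and 5.45 (SE 0.59) in P301S mice, and 7.00 in non-Tg without non-Tg astrocyte 3 and 6.09 in P301S without P301S astrocyte 1. Kcnab2, a beta subunit that carries Kv1 channels to the axon, had the highest level of all members per length in neurons. Non-Tg neurons ranged from 451 to 1795 CPM (median 955 CPM) and non-Tg astrocytes from 9.36 to 37.1 CPM (median 15.7 CPM), without overlap. The log2 fold change was 5.50 (SE 0.40, adjusted p = 3.49e-13), and 5.97 (SE 0.46, adjusted p = 1.80e-12) in P301S mice. Kcnab1 was higher in neurons in both genotypes as well, and Kcnab3 was not called in either.

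Kv2, Kv3 and Kv4 channels carry delayed rectifier and A-type currents, and the genes given here lay on the neuronal side apart from Kcnc4. Kcnb2, which encodes a Kv2 pore subunit, was at 55.4 ± 7.41 CPM in non-Tg neurons and 1.56 ± 2.11 CPM in non-Tg astrocytes (log2 fold change 5.07, SE 0.52; 6.28 without non-Tg astrocyte 2, whose 5.71 CPM was the highest of that group). In P301S astrocytes it had 4 counts over 5 libraries beside 49.4 ± 9.20 CPM in P301S neurons. The value of 7.14 (SE 0.69) rests on those 4 counts, so its size is uncertain. Of the 4 Kv3 genes, known from fast-firing neurons, 3 were higher in neurons in both genotypes and Kcnc4 was not called. Kcnc1 had log2 fold changes of 3.33 (SE 0.39) in non-Tg and 5.71 (SE 0.50) in P301S mice, the latter 6.33 without P301S astrocyte 5. Kcnc2 had 4.59 (SE 0.52) in non-Tg mice. Kcnd2 and Kcnd3, pore genes of the dendritic A-current, were both called higher in neurons in both genotypes.

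The KChIP genes, which encode calcium-binding partners of the Kv4 channels, did not move as 1 group. Kcnip4 ranged from 225 to 554 CPM in non-Tg neurons (median 374 CPM) and from 13.8 to 20.7 CPM in non-Tg astrocytes (median 17.2 CPM). Neurons exceeded astrocytes by 4.49 on the log2 scale (SE 0.34) in non-Tg and 4.59 (SE 0.38) in P301S mice. Kcnip2 was also higher in neurons in both genotypes. Kcnip3 (Entrez 56461, chromosome 2 from 127456498 to 127522094), whose product is also known as a calcium-dependent transcriptional repressor, was lower in neurons. It ranged from 20.0 to 46.2 CPM in non-Tg neurons and from 96.7 to 235 CPM in non-Tg astrocytes, with no overlap. The log2 fold change was -2.12 (SE 0.27, adjusted p = 5.14e-08) in non-Tg and -3.18 (SE 0.31, adjusted p = 3.85e-10) in P301S mice.

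All 6 tested genes of the electrically silent Kv subunits, which change the properties of Kv2 channels, were higher in neurons in both genotypes, and the family summed to 139 ± 28.0 CPM in non-Tg neurons and 16.4 ± 5.45 CPM in non-Tg astrocytes. In P301S mice Kcnv1 was at 43.3 ± 16.3 CPM in neurons and 0.778 ± 0.412 CPM in astrocytes, where it had 11 counts in all (log2 fold change 5.67, SE 0.61). Kcng1 was at 28.9 ± 8.45 CPM in P301S neurons and had 2 counts in P301S astrocytes (adjusted p = 1.89e-08), too few for a fold change to be read. Kcns2 had 0 counts in all 5 P301S astrocyte libraries and was at 7.24 ± 1.33 CPM in P301S neurons, at least 32.3-fold higher than 3 counts over that group.

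Of the Kv7 pore genes, Kcnq5 was higher in neurons, with 4.44 (SE 0.56) in P301S mice. Kcnq3, another Kv7 gene, was at 25.9 ± 8.41 CPM in non-Tg neurons and 12.3 ± 5.73 CPM in non-Tg astrocytes and did not pass (adjusted p = 0.0826 in non-Tg and 0.0517 in P301S mice). All 4 tested EAG genes were higher in non-Tg neurons and 3 of them in P301S neurons. Among them, Kcnh7, an Erg-type gene, was at 126 ± 24.2 CPM in non-Tg neurons and 16.6 ± 6.16 CPM in non-Tg astrocytes. In P301S mice the groups overlapped for Kcnh7. Neurons ranged from 92.9 to 133 CPM, and the astrocyte libraries held 7.32, 73.7, 2.62, 127 and 2.62 CPM. The 5 KCNE genes, which encode small auxiliary subunits, were all below 1 CPM in every group and were not tested.

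Of 6 tested inward rectifier genes, 4 were higher and 1 lower in non-Tg neurons, and 3 and 1 in P301S neurons. Kcnj2, given below, was higher in non-Tg neurons. The G-protein-gated genes Kcnj3, Kcnj6 and Kcnj9, whose channels respond to inhibitory transmitters, were higher in neurons in both genotypes. Kcnj3 ranged from 257 to 527 CPM in non-Tg neurons and from 59.3 to 134 CPM in non-Tg astrocytes, and 31.1% of its exonic bases are shared with a non-coding gene on the other strand. Kcnj6 was at 115 ± 25.0 CPM in non-Tg neurons and 3.33 ± 2.07 CPM in non-Tg astrocytes (log2 fold change 5.07, SE 0.40). In P301S mice it was at 114 ± 12.6 and 1.22 ± 1.18 CPM (6.40, SE 0.49; 7.22 without P301S astrocyte 1). Kcnj9 had a value of 5.40 (SE 0.65) in P301S mice, against 6 counts in the astrocyte libraries.

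Kcnj16 (Entrez 16517, chromosome 11 from 110968033 to 111027968), whose subunit joins the main Kir channel of astrocytes, was the member with the largest excess in astrocytes in both genotypes. It ranged from 0.711 to 4.53 CPM in non-Tg neurons and from 0.484 to 4.36 CPM in P301S neurons. Non-Tg astrocytes ranged from 90.2 to 268 CPM (median 198 CPM), and P301S astrocytes held 117, 156, 4.86, 190 and 23.6 CPM. The groups did not overlap in either genotype, although P301S astrocyte 3 came within 1 CPM of the highest neuron library. The log2 fold change was -6.23 (SE 0.57, adjusted p = 5.02e-11) in non-Tg and -5.25 (SE 0.63, adjusted p = 2.32e-08) in P301S mice. Kcnj13 was not called in either genotype, and 49.1% of its exonic bases are shared with Gigyf2, in which it lies.

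The leak channels (K2P) also lay on both sides. Kcnk9, an acid-sensitive leak channel gene, ranged from 59.2 to 99.3 CPM in non-Tg neurons and had 8 counts over the 6 libraries of non-Tg astrocytes, a mean of 0.458 ± 0.342 CPM. Its log2 fold change of 7.29 (SE 0.72, adjusted p = 3.13e-10) was the largest of the 52 in non-Tg mice. Kcnk1, a weakly conducting leak channel gene, was at 24.7 ± 6.06 CPM in non-Tg neurons and 107 ± 13.2 CPM in non-Tg astrocytes (-2.12, SE 0.31) without overlap. In P301S mice it was at 20.3 ± 5.85 and 80.7 ± 61.8 CPM (-1.98, SE 0.35), with 1 astrocyte library (25.8 CPM) inside the neuron range. Kcnk2, a leak channel opened by stretch and lipids, had values of -1.39 (SE 0.31) and -1.34 (SE 0.35). Kcnk10 was higher in neurons in both genotypes and Kcnk12 in non-Tg mice.

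Among the calcium- and sodium-activated channels, the BK genes lay on the neuronal side and the SK genes on the astrocytic side. Kcnma1, the pore gene of the BK channel that ends action potentials, ranged from 678 to 974 CPM in non-Tg neurons (median 793 CPM). It was also well above the floor in astrocytes, from 110 to 208 CPM in non-Tg and at 139, 135, 57.9, 88.3 and 90.5 CPM in P301S libraries. Neurons exceeded astrocytes by a log2 value of 2.35 (SE 0.19, adjusted p = 5.09e-12) in non-Tg and 2.85 (SE 0.22, adjusted p = 2.05e-12) in P301S mice. Kcnmb4, the brain beta subunit of BK, was higher in neurons in both genotypes, and Kcnmb2 in non-Tg mice. Of the SK genes, whose channels contribute to the hyperpolarization after spikes, 2 were tested. Kcnn3 was at 27.6 ± 4.99 CPM in non-Tg neurons and 100.1 ± 31.4 CPM in non-Tg astrocytes (-1.86, SE 0.29), with -1.80 (SE 0.32) in P301S mice. Kcnn2 had -1.06 (SE 0.33, adjusted p = 0.00767) in non-Tg and -0.34 (SE 0.37, adjusted p = 0.455) in P301S mice.

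Of the sodium-activated channels, Kcnt2 (Slick) was at 215 ± 46.1 CPM in non-Tg neurons and 6.26 ± 5.15 CPM in non-Tg astrocytes, a log2 fold change of 5.13 (SE 0.40). In P301S mice the value was 6.24 (SE 0.48). Kcnt1 (Slack) was at 37.9 ± 31.6 and 57.4 ± 23.7 CPM in non-Tg mice and was not called (-0.57, adjusted p = 0.207). The non-Tg medians were 28.6 CPM in neurons and 49.8 CPM in astrocytes. Non-Tg neuron 8 held 114 CPM and the other non-Tg neurons 17.8 to 39.4 CPM. In P301S mice Kcnt1 was at 52.8 ± 27.7 CPM in neurons and 138 ± 44.0 CPM in astrocytes (-1.38, SE 0.41, adjusted p = 0.00531). Kcnrg, whose product interferes with Kv assembly and which lies inside Dleu2, stood at -1.13 (SE 0.46, adjusted p = 0.0420) in non-Tg mice and at -0.49 (adjusted p = 0.401) without non-Tg astrocyte 5.

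Per length of transcript the order of the members differed between the cell types. On the deposited size-factor-adjusted RPKM scale, members among the 8 highest in non-Tg neurons were Kcnab2 (19.0 ± 9.72), Kcnj3 (11.7 ± 2.69), Kcnma1 (9.25 ± 1.67), Kcna4 (6.20 ± 3.33), Kcnip4 (5.71 ± 1.64), Kcnt2 (4.70 ± 1.03) and Kcna1 (3.62 ± 0.712). The 8 highest in non-Tg astrocytes were Kcnj16 (7.59 ± 2.97), Kcnk1 (7.45 ± 1.02), Kcnn2 (6.68 ± 1.62), Kcna2 (5.50 ± 0.627), Kcnip3 (3.54 ± 1.32), Kcnrg (3.06 ± 2.71), Kcnj3 (2.37 ± 0.652) and Kcnn3 (2.11 ± 0.669). In both lists the range over libraries of each member listed overlapped that of the next. An inward rectifier, a leak channel and an SK gene headed the astrocyte list, and Kcnj3 was in both. Kcnj10, left out by the rule, enters neither these lists nor the sums and shares above. In P301S astrocytes the highest mean was that of Kcnip3 (8.76 ± 3.98), and in P301S neurons Kcnab2 (14.3 ± 3.48) and Kcnj3 (13.2 ± 1.12) again came first.

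Genes that work with these channels under other names were read from 2 further lists. Of 33 partner genes (auxiliary subunits, anchors and the related Hcn channels), 28 were tested between cell types, with 12 higher and 3 lower in non-Tg neurons and 10 higher and 4 lower in P301S neurons. The median over the list was 0.64 in non-Tg mice beside -0.11 over all genes. Higher in non-Tg neurons were Ank3, which anchors channels at the axon initial segment (3.90, SE 0.23), Dpp6, a Kv4 auxiliary subunit (4.40, SE 0.36), Dlg2, a scaffold (3.72, SE 0.29), and Cntnap2, which places Kv1 channels beside the nodes (3.93, SE 0.44). Of 11 sodium pump and cotransporter genes, whose products move potassium across the membrane, 4 were higher and 3 lower in non-Tg neurons, and 4 and 4 in P301S neurons. Atp1b2, an astrocyte pump subunit, had a value of -5.20 (SE 0.24). The neuronal cotransporter gene Slc12a5 had 4.31 (SE 0.45), and Slc12a4 had -5.58 (SE 0.73). In neither cell type did a member of these 2 lists pass the genotype test.

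In P301S neurons no potassium channel gene was called against non-Tg neurons. Of 48 members tested, 0 passed (edgeR), beside 1 of all 10951 genes (0.00913%). At an unadjusted p under 0.05 there were 5 members, beside 7.73% of all genes, and DESeq2 and voom called 0 members. The median log2 fold change over the members was -0.04, beside -0.02 over all genes. Kcnh5, an ether-a-go-go pore gene, had the smallest p. It ranged from 4.80 to 18.8 CPM in non-Tg neurons (median 10.7 CPM) and from 10.3 to 22.1 CPM in P301S neurons (median 18.3 CPM), and the groups overlapped (0.67, SE 0.24, adjusted p = 0.502). Kcnip4 averaged 384 ± 97.2 CPM without and 277 ± 54.5 CPM with the transgene (-0.48, SE 0.18, adjusted p = 0.511). The groups overlapped for all 48 members tested, beside 0.21% of all genes whose groups did not. The next values were 0.51 for Kcnc1 (SE 0.22, adjusted p = 0.607), -0.36 for Kcnt2 (SE 0.16, adjusted p = 0.628), -0.60 for Kcnv1 (SE 0.27, adjusted p = 0.631) and -0.69 for Kcnk12 (SE 0.34, adjusted p = 0.659). The summed level of 8 dentate granule neuron markers was 372 to 551 CPM (median 497 CPM) in P301S neurons. In non-Tg neurons it was 544 to 820 CPM (median 681 CPM), with no marker at 0 in a group. Apart from non-Tg neuron 8 (544 CPM) and P301S neuron 6 (551 CPM), the dentate sums did not overlap. Other lists were higher in P301S neurons at the median: the 8 interneuron markers summed to 100.1 to 196 CPM (median 129 CPM) beside 58.8 to 123 CPM (median 96.7 CPM) in non-Tg neurons. The 10 astrocyte markers summed to 311 to 565 CPM (median 467 CPM) beside 228 to 553 CPM (median 314 CPM), and the 9 microglia and myeloid markers to 50.7 to 316 CPM (median 78.9 CPM) beside 12.8 to 140.1 CPM (median 66.8 CPM). The ranges of these 4 lists overlapped between genotypes, and none of their tested genes was called. Their part in the values of Kcnc1 and the other members was not tested. Without non-Tg neurons 5 and 8 the count was 0 as well.

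In P301S astrocytes, too, no member was called against non-Tg astrocytes, and the values closest to the threshold were those of Kcnip3 and Kcnt1. Of 30 members tested 0 passed (edgeR), beside 66 of 12130 genes (0.544%). At an unadjusted p under 0.05 there were 6 members, beside 13.4% of all genes. DESeq2 called Kcnip3 and Kcnt1, voom called Kcnip3, and a fit that took the spread from all 25 libraries, neurons included, called 13 members (7 higher, 6 lower) and 1682 of all genes. The median over the members was -0.09, beside 0.14 over all genes.

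Kcnip3 ranged from 96.7 to 235 CPM in non-Tg astrocytes (median 120 CPM), and the P301S astrocyte libraries held 298, 363, 599, 258 and 197 CPM. All but 1 P301S library lay above every non-Tg library. With it, the KChIP family took 17.3% ± 6.28 of the Kcn counts in P301S and 8.48% ± 2.01 in non-Tg astrocytes. The means were 139 ± 50.3 CPM (n = 6) and 343 ± 155 CPM (n = 5), a log2 fold change of 1.29 (SE 0.30, adjusted p = 0.0515). The adjusted p was between 0.029 and 0.147 with 1 library left out, and it was 0.994 with detected genes as a covariate, a setting under which 0 of all genes were called. Kcnt1 (Entrez 227632, chromosome 2 from 25863791 to 25918273) ranged from 30.3 to 98.4 CPM in non-Tg astrocytes (median 49.8 CPM), and the P301S libraries held 107, 214, 133, 122 and 112 CPM. It was the 1 tested member whose groups did not overlap, beside 2.14% of all genes. The fitted value was 1.25 (SE 0.35, adjusted p = 0.111).

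**Figure D3:**
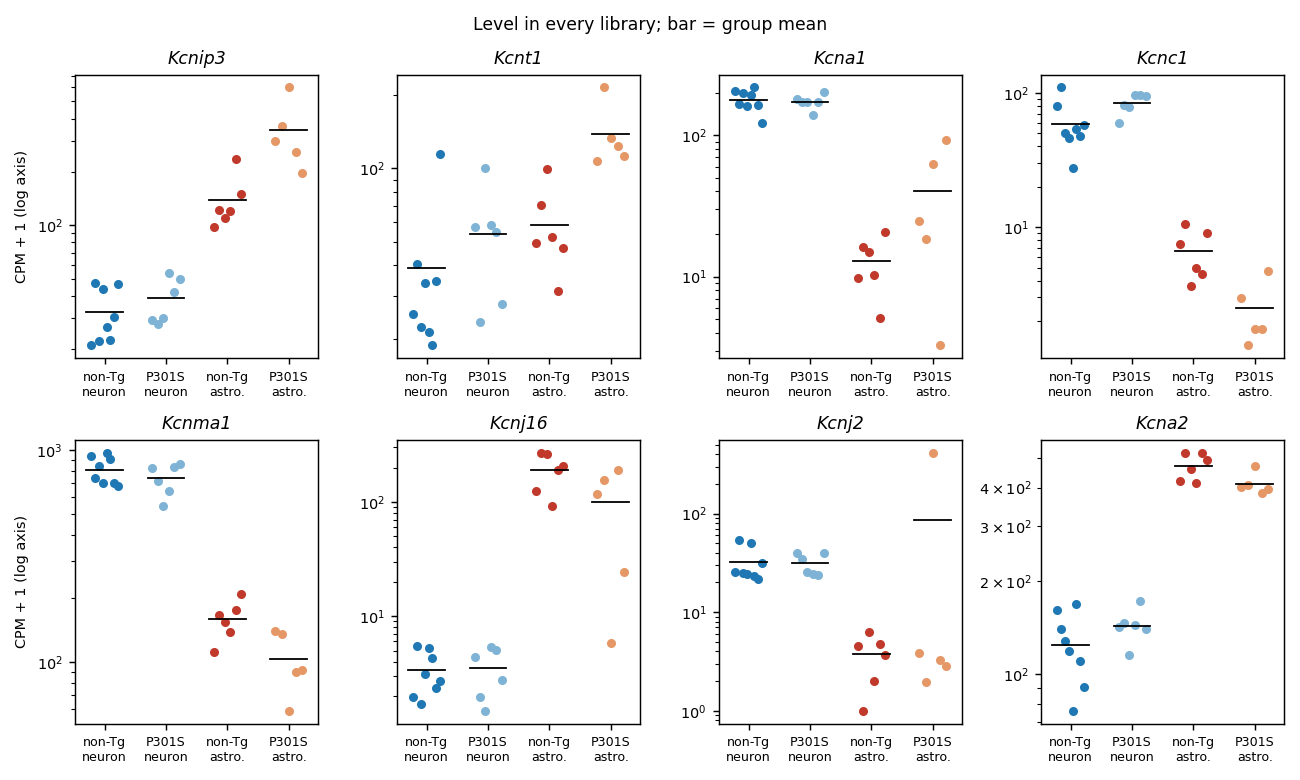
Level of 8 Kcn genes in each library, as CPM + 1 on a log axis, for non-Tg neurons, P301S neurons, non-Tg astrocytes and P301S astrocytes; points are libraries and bars are group means. All 5 P301S astrocyte points of Kcnt1 lie above the 6 non-Tg points, and the P301S astrocyte mean of Kcnj2 rests on 1 library at 413 CPM.

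Kcna1, Kcnc1 and Kcnma1 were among the other members with a small p in astrocytes. Kcna1 was at 11.8 ± 5.54 CPM in non-Tg astrocytes and at 23.9, 17.3, 62.0, 2.27 and 91.3 CPM in P301S astrocytes (1.71, SE 0.68, adjusted p = 0.265). Kcnc1 was at 5.69 ± 2.75 and 1.51 ± 1.39 CPM (-1.89, SE 0.87, adjusted p = 0.350), with 21 counts in all P301S astrocyte libraries. Its value was -2.51 (adjusted p = 0.227) without P301S astrocyte 5. Kcnma1 was at 159 ± 33.2 and 102 ± 34.5 CPM (-0.64, SE 0.30, adjusted p = 0.359). Kcnj16, the leading astrocyte member, stood at -0.96 (SE 0.56, adjusted p = 0.465) and is given here by a choice made after its value was seen.

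Markers of other cells were summed in the astrocyte libraries. The 8 oligodendrocyte markers summed to between 202 and 531 CPM in non-Tg and to between 388 and 1302 CPM in P301S astrocytes, where P301S astrocytes 3 and 4 were highest (1302 and 1072 CPM). The 10 neuron markers summed to between 543 and 750 CPM in non-Tg and to between 636 and 1088 CPM in P301S astrocytes. The 8 interneuron markers summed to between 8.75 and 22.2 CPM and to between 0.315 and 18.0 CPM, with Slc32a1, Pvalb, Vip and Lhx6 at 0 in all P301S astrocyte libraries. The 6 oligodendrocyte precursor markers summed to between 231 and 427 CPM in non-Tg and to between 294 and 709 CPM in P301S astrocytes, and the 9 microglia and myeloid markers to between 30.1 and 81.9 CPM and to between 63.6 and 188 CPM. The 10 mural and endothelial markers summed to between 88.8 and 160 CPM and to between 48.3 and 141 CPM, with Cldn5 and Kdr at 0 in P301S astrocytes. The ranges of all 6 lists overlapped between genotypes, and none of their tested genes was called. Only 1 of 8 interneuron, 4 of 10 mural and endothelial and 5 of 9 microglia and myeloid markers were tested. Precursor sums in P301S astrocytes 1 to 5 were 520, 449, 709, 294 and 490 CPM. Their microglia and myeloid sums were 85.0, 63.6, 188, 103 and 92.4 CPM. In both, all but 1 library lay above every non-Tg library. Interneuron and mural sums had lower medians in P301S (4.48 and 73.2 CPM) than in non-Tg astrocytes (15.2 and 121 CPM). Among the list genes, the gene of the sort antigen, Gfap, rose in P301S astrocytes (2.23, SE 0.30, adjusted p = 5.12e-04), and so did Pdzd2, from the dentate granule list (2.39, SE 0.52, adjusted p = 0.0349). The part of these markers in the values of Kcnip3, Kcnt1 and Kcna1 was not tested. A sex marker value (log2 CPM of Xist minus the mean of Y-linked genes) ran from -2.63 to -1.07 in non-Tg astrocytes, while P301S astrocytes 1 to 5 held -0.20, -1.75, 1.15, 1.81 and 0.65. With this value as a covariate the genotype value of Kcna1 was 0.89 (adjusted p = 0.883), that of Kcnc1 -2.51 (adjusted p = 0.726) and that of Kcnma1 -0.23 (adjusted p = 0.935). Under the same covariate Kcnip3 had 1.57 (adjusted p = 0.258) and Kcnt1 1.34 (adjusted p = 0.381).

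**Figure D4:**
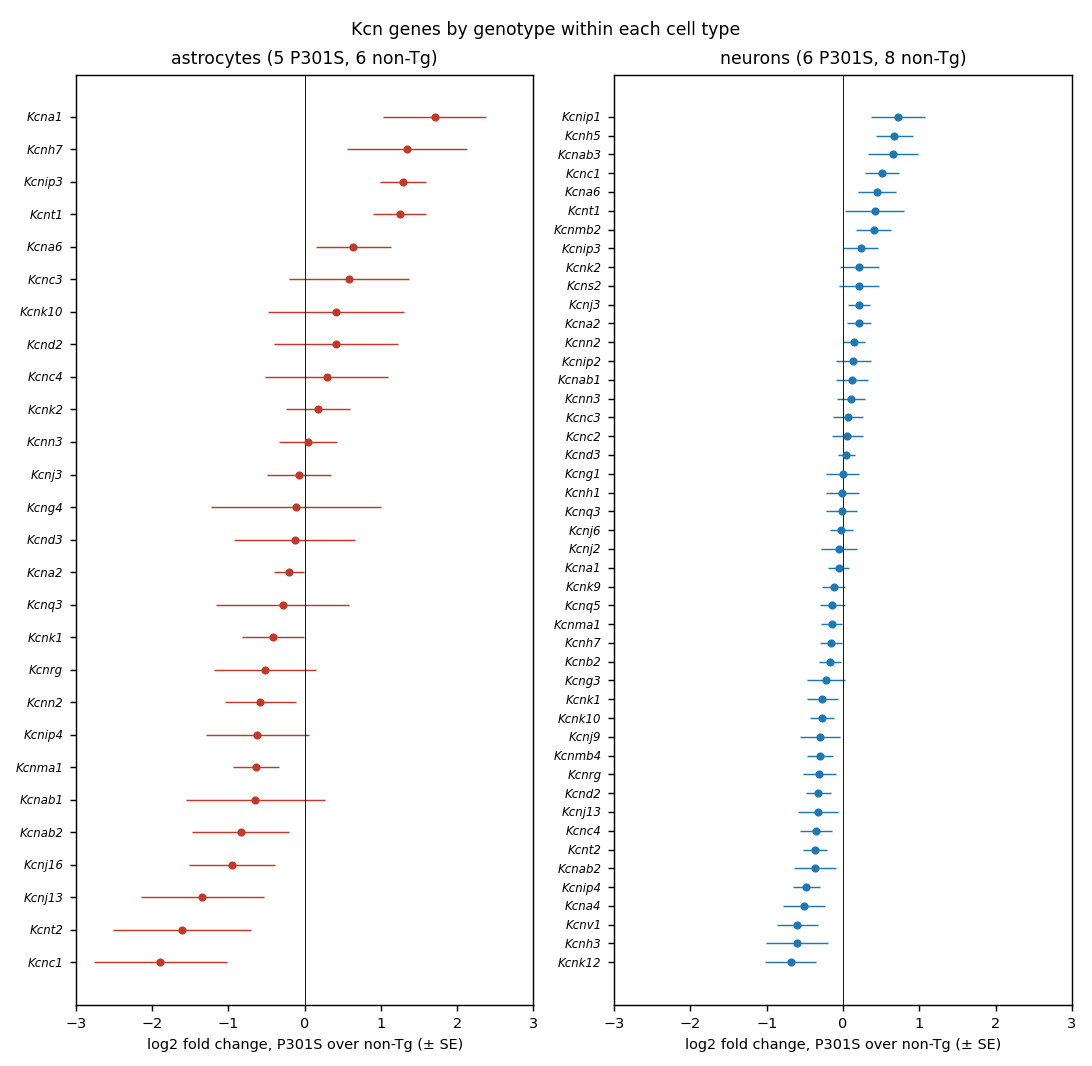
Log2 fold change of P301S over non-Tg libraries for 27 of the Kcn genes tested in astrocytes (left) and 46 of those tested in neurons (right); points are fitted values, bars are standard errors and genes are ordered by value. None was called in either panel; Kcna1, Kcnip3 and Kcnt1 lie to the right of 0 in astrocytes by more than 1 standard error.

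The effect of genotype differed between the cell types for no member at the threshold used. In 1 fit of all 25 libraries, 0 of 52 members passed for the effect in astrocytes minus that in neurons (edgeR), beside 56 of 14197 genes (0.394%). At an unadjusted p under 0.05 there were 16 members, beside 14.8% of all genes, and DESeq2 called 4 members, Kcnc1, Kcng1 and Kcnmb4 among them, while voom called 0. Kcnc1 had the smallest p. In neurons its mean was 58.3 CPM without and 83.9 CPM with the transgene, and in astrocytes 5.69 and 1.51 CPM, a difference of -2.38 on the log2 scale (SE 0.58, adjusted p = 0.0514). Without P301S astrocyte 5 the difference was -2.99 (adjusted p = 0.0195), and it passed too without P301S astrocyte 1, 2 or 4 or non-Tg astrocyte 3, 4 or 5. With detected genes as a covariate it was -1.61 (adjusted p = 0.408), and over all alternatives the adjusted p reached 0.647. The P301S astrocyte libraries held only 7, 1, 2, 1 and 10 counts of Kcnc1. Kcna1 had a difference of 1.80 (SE 0.57, adjusted p = 0.115), which passed without P301S astrocyte 4 (2.07, adjusted p = 0.0218). Kcng1 had -3.51 (SE 1.02, adjusted p = 0.0870), which rests on 2 counts in P301S astrocytes and was -2.11 without non-Tg astrocyte 1 (8.76 CPM). Kcnmb4 had 3.47 (SE 0.96, adjusted p = 0.0727), with P301S astrocytes at 0.563, 13.9, 0.374, 0 and 34.8 CPM, and 31.5% of its exonic bases are shared with antisense genes. Its difference was 2.14 without P301S astrocyte 5, and it passed without P301S astrocyte 1, 3 or 4 (3.78, 3.78 and 3.75). Among the 8 members called between cell types in 1 genotype alone, Kcnj2 had the smallest p for the difference (adjusted p = 0.0578).

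Kcnj2 (Entrez 16518, chromosome 11 from 111066164 to 111076825), a strong inward rectifier gene that lies beside Kcnj16, rested on a single library. P301S astrocytes held 2.82, 0.945, 413, 2.27 and 1.87 CPM, and non-Tg astrocytes ranged from 0 to 5.32 CPM. Neurons ranged from 20.6 to 52.8 CPM in non-Tg and from 22.9 to 38.9 CPM in P301S libraries. The 413 CPM of P301S astrocyte 3 came from 1105 counts. With it, the difference of genotype effects was 4.98 (SE 1.28) and the P301S contrast of neurons over astrocytes -1.47 (SE 0.87, adjusted p = 0.156). Without it, they were -0.41 (adjusted p = 0.83) and 3.93 (adjusted p = 1.27e-06), beside 3.51 (SE 0.94, adjusted p = 0.00245) in non-Tg mice. The same library also held the highest P301S astrocyte values of Kcnip3 (599 CPM), Kcna2 (469 CPM) and Kcnh5 (27.3 CPM) and the lowest of Kcnj16 (4.86 CPM) and Kcnn2 (14.2 CPM).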

How the data were processed

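Each library's file held counts of reads aligned uniquely to a gene model, per Entrez gene ID, and RPKM values that the authors adjusted by size factors, per the file headers. The submitters' processing notes name GSNAP, with no version, and GRCm38. The counting tool and its strand setting were not given in the sources used here. Deposited RPKM followed the counts of each gene to within a relative deviation of 3.73e-14 and were used only to order genes per length. IDs without a symbol (5479) held 3.30% of the counts and stayed in the fits. No libraries had identical values (0 pairs).

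Counts were tested with edgeR 4.0.16 in R 4.3.3 (TMM scaling, filterByExpr, robust quasi-likelihood test, Benjamini-Hochberg over all genes, called at an adjusted p under 0.05). Genotype was tested within each cell type, and the cell type contrasts and the difference of genotype effects in 1 fit of all 25 libraries. A standard error is the log2 fold change divided by the root of F. Alternatives were DESeq2 1.42.0, limma 3.58.1 voom with quality weights, RLE factors, other filters, covariates, other sets of libraries and each library left out. The fitting code was tested on simulated data.

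Genes named with values were, per cell type contrast, up to 12 called in each direction by p, the 6 smallest p of each genotype comparison, the 8 highest RPKM of each non-Tg group and 4 genes of each further list. Kcnab1, Kcnh7, Kcns2, Kcnq3 and others outside this rule were named to account for their family after their values were seen. Members and lists were chosen with earlier results of these data known. Library numbers within a group follow deposit order and pair nothing. Some genes that this rule names are in the counts but are not reported here or drawn. Cd11b+ cells were not analysed here.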

Additional observations from a re-analysis of the deposited data

Results flagged for a closer look

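In 120 groups of values (30 named genes in 4 groups of libraries), 13 had a library whose CPM stood apart from the rest of its group by the gap to the nearest value relative to the range. By the construction of Dixon's limit, about 1 in 20 groups of independent, normally spread values would do so by chance, while these genes are not independent and were named for their values. Of the 13, 5 were in P301S astrocytes, 5 in non-Tg astrocytes, 2 in non-Tg neurons and 1 in P301S neurons.

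P301S astrocyte 3 stood apart for the inward rectifier gene Kcnj2 at 412.84 CPM (others 0.945 to 2.82 CPM), for Kcna2 at 469.25 CPM (others 383 to 408 CPM) and for Kcnh5 at 27.273 CPM (others 0 to 0.845 CPM). P301S astrocyte 2 stood apart for Kcnt1 at 214.16 CPM (others 107 to 133.0 CPM) and P301S astrocyte 1 for Kcnk9 at 10.699 CPM (others 0 to 0.755 CPM). In non-Tg astrocytes, library 2 was apart for Kcnb2 at 5.7057 CPM (others 0 to 1.48 CPM) and for Kcnk12 at 1.5849 CPM, which is 5 counts (others 0 to 0.324 CPM). Library 1 was apart for Kcng1 at 8.7604 CPM (others 0 to 2.01 CPM), library 4 for Kcnt2 at 16.26 CPM (others 2.04 to 6.97 CPM) and library 5 for Kcnrg at 95.943 CPM (others 16.3 to 28.1 CPM).

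Non-Tg neuron 5 was apart for Kcna4 at 391.06 CPM (others 104 to 219 CPM), and non-Tg neuron 8 for Kcnt1 at 113.84 CPM (others 17.8 to 39.4 CPM). These are the libraries with sample identifiers of another range. P301S neuron 5 was apart for Kcnh5 at 10.321 CPM (others 18.0 to 22.1 CPM).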

How the results depend on the processing

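No paired analysis was possible because the labels give no replicate numbers or animals that tie libraries across groups. Over 63 named results and 1967 alternative values, 1899 kept their direction and side of the threshold, 35 passed it newly, 28 no longer passed it and 5 turned direction. For genotype in astrocytes, where 0 members were called, the count was 2 with DESeq2 (Kcnip3 and Kcnt1), 1 each with RLE size factors, with no filter and with voom (Kcnip3 each time), 13 in 1 fit of all libraries (7 higher, 6 lower) and 0 to 1 with 1 library left out: Kcnj2 without P301S astrocyte 2, and Kcnip3 without P301S astrocyte 4 or 5 or non-Tg astrocyte 5. Over all genes that comparison gave 66 calls, and 441 with DESeq2, 1682 in 1 fit of all libraries, 561 with no filter, 112 with voom, 15 with a sex marker covariate and 0 with detected genes as a covariate. For genotype in neurons the 0 members held in every alternative run, while all genes gave 1 call and up to 49 (DESeq2). The P301S cell type count of 42 was 22 with detected genes as a covariate. For the difference of genotype effects, 0 members became 4 with DESeq2, 1 with RLE size factors (Kcnc1), 1 with detected genes as a covariate (Kcnk9) and 0 to 6 with 1 library left out: 6 without P301S astrocyte 1, 4 without 4, 2 without 2, 3 or 5, and 1 (Kcnc1) without non-Tg astrocyte 3, 4 or 5. The P301S cell type value of Kcnj2 (-1.47) was 1.14 with detected genes and 0.58 with a sex marker as covariate, 2.80 with voom, and -1.78 to 3.93 with 1 library left out. Its difference of genotype effects (4.98) was -0.41 to 5.30 with 1 library left out, the lowest without P301S astrocyte 3. Kcnrg lost its non-Tg call in 21 alternatives. The cell type counts stayed between 43 and 49 (non-Tg) and 39 and 46 (P301S) with 1 library left out. The member count of 78 was 69 at 2 CPM. Apart from Kcnj2, whose values turn with 1 library, the cause of these changes was not tested. At totals of 1887053 to 3788572 counts in astrocyte libraries, members under the floor in astrocytes could not be compared between genotypes.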
